A study of Mus musculus with 18 samples.

Results

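The mouse Serpina3 genes and a group of acute-phase proteins were examined in embryonic stem (ES) cell cultures and in the stromal cells that carry them. The Serpina3 genes are SERPINA3N, SERPINA3F, SERPINA3G, SERPINA3H and SERPINA3M. The other 5 genes are SAA3, LCN2, SLPI, HP and C3. They were chosen by name: every probe of the array table with one of these names was taken, which gave 12 probes of 45281, 3 of them for HP and 1 for each other gene. The 10 genes are among 16446 tested, after probes not detected on at least 3 of the 18 arrays had been set aside. SERPINA3M met that requirement only through its FGF2-treated arrays.

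The names were picked with results of these arrays in view. The values taken to have led to them were the higher signals of SERPINA3N, SERPINA3F and SLPI upon FGF2 in the stroma, of SERPINA3N upon FGF2 in the co-cultures, and the lower signal of SAA3 upon BMP4 in the co-cultures. The FGF2 comparisons, the BMP4 comparison in co-cultures and the differences between culture types are therefore given for these 10 genes as descriptions, without a test. The BMP4 comparison in the stroma alone and the comparison of culture types without growth factors were taken as not used in the choice and were tested. They share control arrays with the comparisons that were used, so their p-values are not independent of the choice.

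Murine ES cells were grown on monolayers of PA6 cells (ES/PA6 co-cultures), and PA6 cells were grown alone (PA6 mono-cultures). Both kinds of culture were kept in serum-free medium for 3 days without growth factors (-GFs), with recombinant FGF2 at 20 ng/ml or with recombinant BMP4 at 10 ng/ml. The mono-cultures show what the stroma does by itself. Each of the 6 groups had 3 biological replicates, with 1 well per condition in each. PA6 is a mouse stromal line of preadipose character, and in the study's methods the ES cells carry an EGFP knock-in at the tau locus and had been expanded on mitomycin-arrested embryonic fibroblasts. All groups share the serum-free medium, and the co-cultures hold PA6 cells under the ES cells.

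The acute-phase response is the programme by which cells raise a set of secreted proteins during injury and inflammation. The liver is its main site, but stromal cells, fibroblasts, adipocytes and epithelia also run it. IL-6 family cytokines acting through JAK and STAT3, and IL-1 or TNF acting through NF-κB and C/EBP factors, are its classical inducers. Serpins are protease inhibitors that trap their target in an irreversible complex, and rodents carry a row of Serpina3 paralogs where the human genome has a single antichymotrypsin gene. SERPINA3N blocks granzyme B and leukocyte elastase, SERPINA3G acts on lysosomal cysteine cathepsins, and SLPI is a small, unrelated inhibitor of leukocyte elastase and cathepsin G. SAA3 is a serum amyloid A made outside the liver, LCN2 (lipocalin 2) binds iron-loaded bacterial siderophores, HP (haptoglobin) captures free haemoglobin, and C3 is the central component of complement.

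Between 17125 and 18391 probes were detected on the mono-culture arrays and between 19365 and 20412 on the co-culture arrays. Levels are given as background-corrected, quantile-normalized log2 intensities, on which an undetected probe lies near 5. The 10 stromal markers averaged 13.34 in PA6 -GFs and 11.98 in ES/PA6 -GFs, while the 9 pluripotency markers averaged 5.99 and 12.49. In a mixed culture, fewer cells of a type and less RNA per cell cannot be told apart. Of the 8 macrophage markers 5 were detected on no array in each of the groups, and their mean ran from 5.67 to 5.88. Of the 6 hepatocyte or visceral endoderm markers 4 to 6 were detected on no array of a group (means 5.12 to 5.41), and the defining liver genes ALB and AFP were undetected on every array. The 7 endothelial markers averaged 5.70 to 5.90 in the mono-cultures and 7.05 to 7.40 in the co-cultures. Adipocyte markers moved with the treatments and with the culture type, and are given beside each comparison.

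Upon FGF2, PA6 cells alone carried more transcript of every Serpina3 member and of SAA3, LCN2 and SLPI. SERPINA3N showed the widest separation of the 10 genes. Its log2 intensity was 6.83, 5.60 and 6.71 on the 3 PA6 -GFs arrays, the second of which did not detect it, and 14.74, 14.80 and 14.54 on the PA6 FGF2 arrays. The FGF2 arrays were therefore tight and far above every control array, by 8.31 ± 0.54 on the log2 scale, or 318-fold. Here and below, ± is the SE of the limma fit, which pools the spread of all 6 groups (n = 3 per group). On the FGF2 arrays its raw signal reached 33.5% to 44.2% of the brightest probe.

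SERPINA3F was not detected on any PA6 -GFs array (5.44, 5.16 and 4.92) and stood at 10.87, 10.69 and 10.10 with FGF2. This places it at least 19.1-fold higher, counted from the lowest detected signal of the control arrays. SERPINA3M, a gene next to SERPINA3N in the cluster, was likewise undetected in PA6 -GFs (mean 5.34) and was measured at 7.49, 8.59 and 7.54 with FGF2, at least 2.98-fold higher. Both genes thus went from below background to a measurable level on all 3 treated arrays.

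SERPINA3G was detected on each PA6 -GFs array, at 11.79, 11.58 and 11.23, and stood at 13.48, 13.30 and 13.18 with FGF2. The difference was 1.79 ± 0.32, and the 2 groups did not overlap. SERPINA3H, which RefSeq annotates as a transcribed pseudogene, stood at 7.11, 7.74 and 7.22 without and at 9.10, 7.94 and 8.76 with FGF2. Its second FGF2 array lay just above the highest control array, and the difference of 1.24 ± 0.30 dropped to 0.99 when PA6 FGF2 replicate 1 was left out.

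The 3 acute-phase genes outside the cluster went the same way. SAA3 stood at 9.06, 8.93 and 8.38 in PA6 -GFs and at 13.70, 13.15 and 13.01 in PA6 FGF2, a difference of 4.49 ± 0.60. LCN2 stood at 12.03, 10.98 and 11.24 against 15.90, 15.97 and 15.61, a difference of 4.41 ± 0.55. SLPI stood at 7.32, 7.66 and 6.52 against 11.75, 12.79 and 11.84, a difference of 4.96 ± 0.45. No control array of any of the 3 genes came within reach of an FGF2 array. With FGF2 the LCN2 probe read at 70.5% to 91.5% of the brightest probe on its arrays, which is close to the end of the scale.

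HP and C3 behaved differently. HP stood at 14.91, 14.87 and 14.84 in PA6 -GFs and at 15.65, 15.74 and 15.69 with FGF2. The arrays of the 2 groups did not overlap. Its 3 probes gave differences of 0.82, 1.16 and 1.0, and the second of these would by itself have passed the thresholds used below, which the brightest did not. With FGF2 the brightest HP probe read at 73.2% to 76.1% of the brightest probe on its arrays. C3 stood at 15.54, 15.52 and 15.82 against 15.32, 15.49 and 15.57, and the groups overlapped (difference -0.17 ± 0.18). C3 read at 65.6% to 88.8% of the brightest probe without growth factors.

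In this comparison 8 of the 10 genes were higher beyond the thresholds used throughout, a Benjamini-Hochberg adjusted p under 0.1 in limma and an absolute log2 fold change over 1. Of all genes tested 5.27% passed these thresholds and 2.71% passed them upwards. Because the comparison entered the choice of the genes, nothing is read from that count. The median log2 difference was 3.47 over the 10 genes and -0.01 over all genes tested. Of 7 adipocyte markers tested 4 fell in the same comparison (median -2.75), and their part in the values of the 10 genes was not tested.

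**Figure D1:**
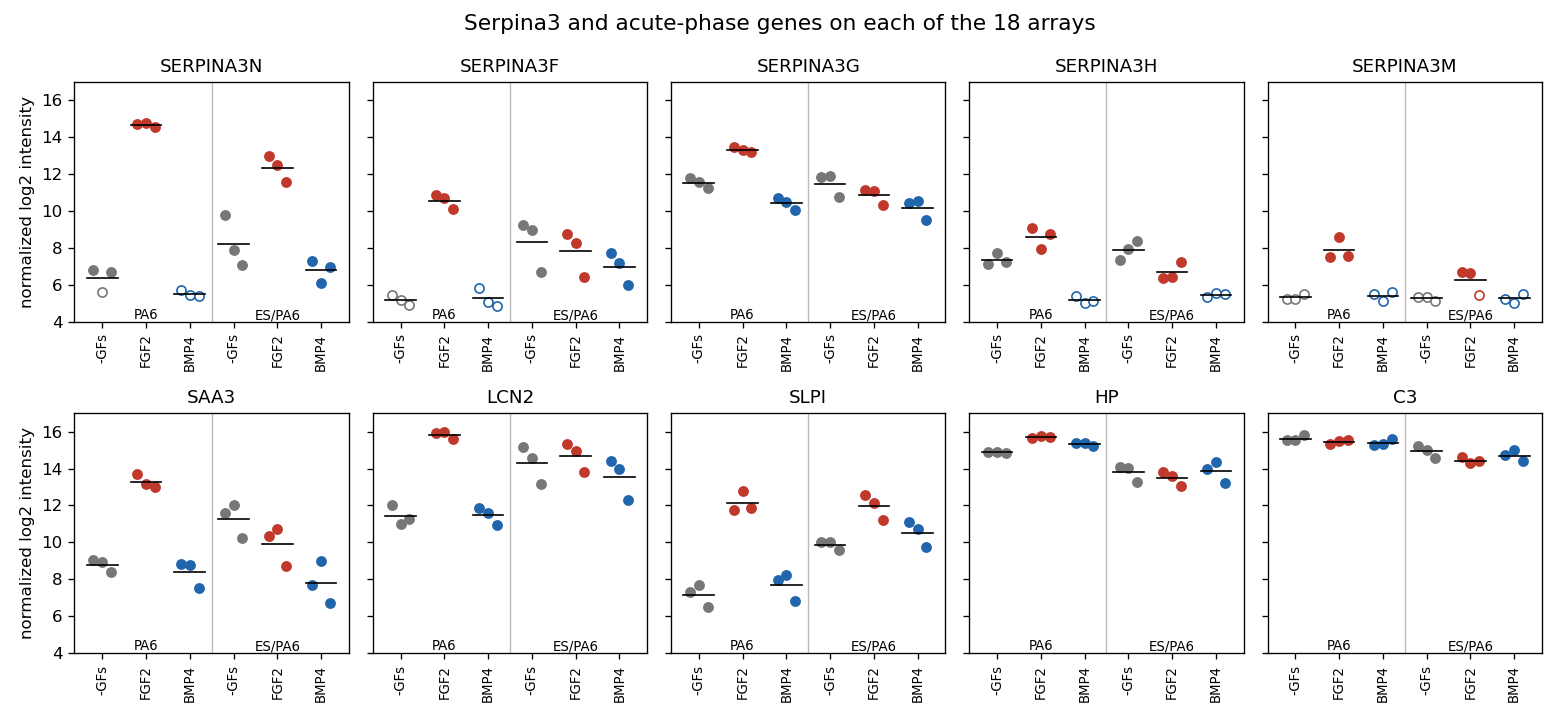
Normalized log2 intensity (y axis) of each of the 10 genes on the 18 arrays, grouped by culture type and medium (x axis). Each point is 1 array, open where the probe was not detected, and the bar is the group mean. In the PA6 mono-cultures the FGF2 arrays of 8 genes stand above the other mono-culture arrays, HP is slightly higher and C3 overlaps. In the co-cultures only SERPINA3N, SERPINA3M and SLPI have FGF2 arrays that all lie above the -GFs arrays.

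The Serpina3 genes sit side by side on chromosome 12, where the RefSeq annotation of GRCm38.p6 orders SERPINA3F, SERPINA3G and SERPINA3H next to each other and SERPINA3M and SERPINA3N as neighbours further along. Between them lie Serpina3i, Serpina3j, Serpina3k and the pseudogene Serpina3l-ps. Of the 17 other serpin genes listed for this stretch 15 have a probe, and SERPINA1A was the only gene of these detected often enough to be tested. SERPINA1A passed the thresholds in none of the growth factor comparisons (log2 fold change -0.39 upon FGF2 in PA6). Probe sequences were not used here, and the Serpina3 paralogs resemble each other closely, so signal shared between their probes was not tested and their separate levels are uncertain to that extent.

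The promoters of 3 of the cluster's genes are shown because these genes were higher together upon FGF2 in the stroma. The stretches are the 250 bases before the annotated start in RefSeq (GRCm38.p6), all on the plus strand of chromosome 12: chr12:104406458-104406707 for SERPINA3N, chr12:104214294-104214543 for SERPINA3F (the first of its 2 annotated starts) and chr12:104235897-104236146 for SERPINA3G. Capitals mark runs of at least 10 bases that a stretch shares with another of the 3.
SERPINA3N: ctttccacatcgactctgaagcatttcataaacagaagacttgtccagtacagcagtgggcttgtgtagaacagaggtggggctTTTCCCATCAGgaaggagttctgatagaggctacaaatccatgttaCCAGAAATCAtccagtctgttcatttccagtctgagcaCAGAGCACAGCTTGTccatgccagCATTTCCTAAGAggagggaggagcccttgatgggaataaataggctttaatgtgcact
SERPINA3F: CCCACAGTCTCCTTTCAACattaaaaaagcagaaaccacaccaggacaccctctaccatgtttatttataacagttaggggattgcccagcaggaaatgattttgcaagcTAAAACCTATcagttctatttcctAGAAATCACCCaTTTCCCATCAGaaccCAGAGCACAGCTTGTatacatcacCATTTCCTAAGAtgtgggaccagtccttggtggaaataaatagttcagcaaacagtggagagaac
SERPINA3G: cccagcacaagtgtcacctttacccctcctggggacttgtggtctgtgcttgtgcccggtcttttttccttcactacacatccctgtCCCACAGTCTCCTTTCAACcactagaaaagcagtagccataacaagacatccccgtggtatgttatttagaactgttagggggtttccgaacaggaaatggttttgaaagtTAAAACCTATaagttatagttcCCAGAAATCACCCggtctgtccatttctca
SERPINA3N and SERPINA3F shared 38 bases in such runs, the longest of 15 bases, and SERPINA3F and SERPINA3G shared 40 bases, the longest of 19. SERPINA3N and SERPINA3G had a single shared run of 10 bases. Set against the same stretches of LCN2, SLPI, SAA3 or C3, outside the cluster, SERPINA3F shared a run of 12 bases. SERPINA3N and SERPINA3G shared no run of at least 10 bases with those genes. The 10-base run of SERPINA3N and SERPINA3G is therefore not read as particular to the cluster. How often runs of such lengths occur between unrelated promoters was not tested. The runs shared by SERPINA3F and SERPINA3G lie farther from the start in SERPINA3F than in SERPINA3G.

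The 3 genes outside the cluster with the widest FGF2 separation are shown beside them, with capitals for matches to the C/EBP letters TTGCNNAA on either strand. The stretches, all on the minus strand of GRCm38.p6, are chr7:46715677-46715926 for SAA3, chr2:32387740-32387989 for LCN2 and chr2:164356508-164356757 for SLPI.
SAA3: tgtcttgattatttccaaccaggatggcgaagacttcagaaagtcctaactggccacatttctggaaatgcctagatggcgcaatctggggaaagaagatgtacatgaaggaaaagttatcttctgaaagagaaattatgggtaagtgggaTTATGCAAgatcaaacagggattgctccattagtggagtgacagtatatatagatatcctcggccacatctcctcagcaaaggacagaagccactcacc
LCN2: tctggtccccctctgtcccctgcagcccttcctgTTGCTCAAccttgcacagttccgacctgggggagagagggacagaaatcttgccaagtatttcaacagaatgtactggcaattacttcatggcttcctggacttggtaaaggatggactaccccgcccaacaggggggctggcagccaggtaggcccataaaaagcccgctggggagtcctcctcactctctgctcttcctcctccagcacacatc
SLPI: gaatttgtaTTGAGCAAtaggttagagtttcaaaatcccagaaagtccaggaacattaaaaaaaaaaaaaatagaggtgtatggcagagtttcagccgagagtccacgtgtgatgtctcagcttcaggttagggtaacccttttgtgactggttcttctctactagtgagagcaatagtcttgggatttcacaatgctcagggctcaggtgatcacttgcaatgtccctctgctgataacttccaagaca
Promoter windows of 300 bases (250 before and 50 after the start) were on hand for 7 of the 10 genes, and SERPINA3H, SERPINA3M and HP were not among them. The C/EBP letters occurred in the windows of 5 genes (SERPINA3F, SAA3, LCN2, SLPI and C3) and in 10.8% of all 32851 windows. The STAT letters TTCNNNGAA occurred in SERPINA3F, from position -121 of its first start, and in SERPINA3G, from position -33, against 8.3% of all windows. The NF-κB consensus was found in SERPINA3G from position -85 and in 8.46% of all windows. The AP-1 letters TGANTCA were found in 0 of the 7 genes and in 7.81% of all windows. SERPINA3N, with the widest separation of the 10 genes, held none of the 4 motifs in its window. No match overlapped another. A match describes letters in a window and is not a measured binding site.

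In the ES/PA6 co-cultures the response to FGF2 was split. SERPINA3N and SLPI were again higher, SERPINA3M less so, LCN2 differed little, and SERPINA3F, SERPINA3G, SERPINA3H and SAA3 were on the lower side. SERPINA3N stood at 9.77, 7.88 and 7.07 in ES/PA6 -GFs and at 12.98, 12.50 and 11.58 in ES/PA6 FGF2. The lowest FGF2 array was above the highest control array, and the difference was 4.11 ± 0.54, or 3.21, 4.63 and 4.51 between arrays of the same replicate number. SLPI stood at 10.04, 10.01 and 9.57 against 12.55, 12.14 and 11.23, without overlap and with a difference of 2.10 ± 0.45. SERPINA3M was undetected in -GFs and stood at 6.72, 6.64 and 5.44 with FGF2, the last of these undetected, which makes it at least 1.3-fold higher.

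SAA3 lay on the other side from the stroma alone. It stood at 11.61, 12.01 and 10.22 in ES/PA6 -GFs and at 10.32, 10.74 and 8.69 in ES/PA6 FGF2. The groups overlapped through replicate 3, the lowest of both, yet within each replicate number SAA3 was lower with FGF2, by -1.29, -1.26 and -1.53. SERPINA3G was lower in every replicate number too (-0.69, -0.80 and -0.42), and so was SERPINA3F (-0.51, -0.67 and -0.23), both with overlapping groups. SERPINA3H stood at 7.36, 7.95 and 8.37 against 6.40, 6.45 and 7.24, without overlap and with a difference of -1.19 ± 0.30.

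LCN2 was bright in the co-cultures whatever the medium, at 15.18, 14.57 and 13.17 without growth factors and at 15.35, 14.94 and 13.83 with FGF2. The difference of 0.40 ± 0.55 is smaller than the spread within each group. HP (-0.30 ± 0.26) and C3 (-0.50 ± 0.18) also had overlapping groups. Of the 10 genes 3 passed the thresholds upon FGF2 in co-cultures, SERPINA3N and SLPI upwards and SERPINA3H downwards, against 3.34% of all genes. SERPINA3H fell below the thresholds when ES/PA6 -GFs replicate 3 (-0.96) or ES/PA6 FGF2 replicate 1 (-1.05) was left out. SERPINA3G entered at -1.0 without ES/PA6 -GFs replicate 3, and SERPINA3M at 1.38 without ES/PA6 FGF2 replicate 3. SERPINA3N moved to 4.88 without ES/PA6 -GFs replicate 1, and SERPINA3F, not called, to 0.22 without ES/PA6 FGF2 replicate 3. With the replicate number as a block SAA3 passed as well, making 4 genes. Of the 7 adipocyte markers 1 fell (median -0.30).

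**Figure D2:**
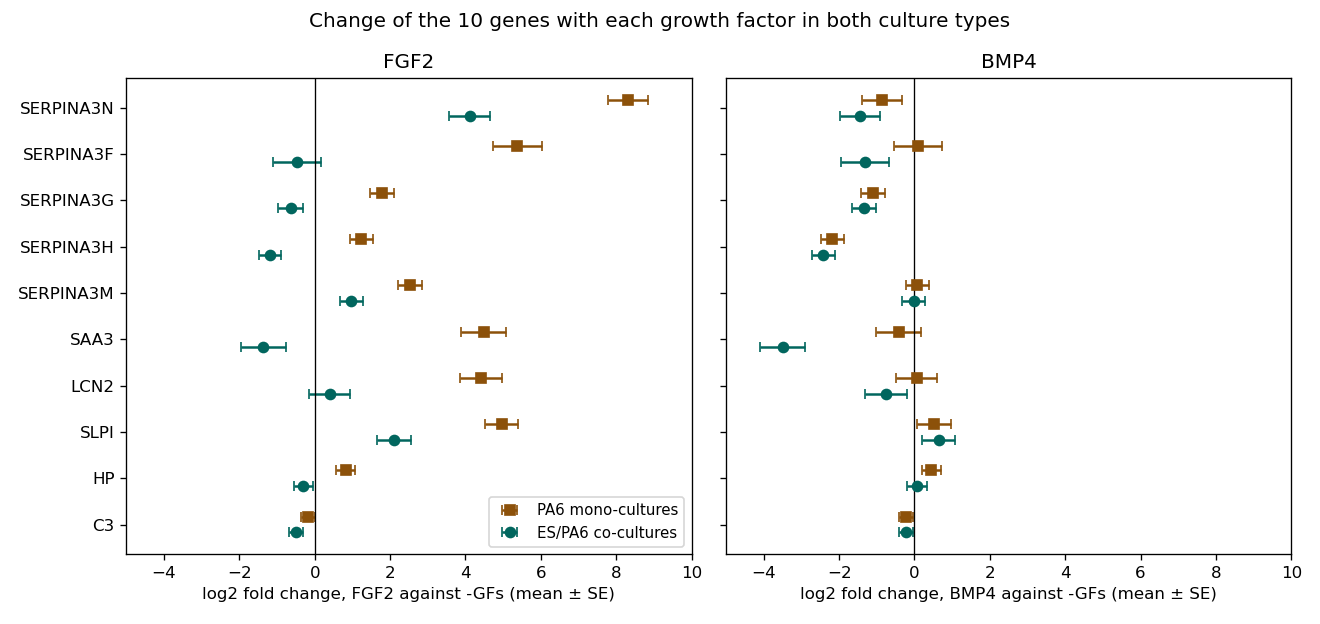
Log2 fold change against -GFs (x axis, mean ± SE of the limma fit, 3 arrays per group) of the 10 genes (y axis) upon FGF2 (left) and BMP4 (right). Squares are PA6 mono-cultures and circles ES/PA6 co-cultures. The FGF2 squares lie to the right of the circles for each of the 10 genes, SAA3 standing at 4.49 and -1.36, whereas the BMP4 symbols of most genes lie close together.

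The log2 fold change upon FGF2 was lower in the co-cultures than in the mono-cultures for each of the 10 genes. For C3, on the lower side in both, the value was the farther from 0 in the co-cultures (-0.50 against -0.17). The difference of the log2 effects, co-cultures minus mono-cultures, was -5.85 ± 0.85 for SAA3, -4.20 ± 0.76 for SERPINA3N and -4.01 ± 0.78 for LCN2. It was -2.86 for SLPI, -2.44 for SERPINA3H, -2.42 for SERPINA3G, -1.12 for the brightest probe of HP and -0.33 for C3. The other HP probes gave -1.68 and -1.52. The fitted values of SERPINA3F (-5.85) and SERPINA3M (-1.56) depend on the offset added before taking logarithms, because both genes were undetected in PA6 -GFs, and they have no rank among the others. Without ES/PA6 -GFs replicate 1 SERPINA3N moved to -3.43, without ES/PA6 FGF2 replicate 3 SAA3 moved to -5.24 and SERPINA3F to -5.16, and without ES/PA6 -GFs replicate 3 SERPINA3F moved to -6.66. Beyond the thresholds were 9 of the 10 genes, C3 being the exception, against 7.39% of all genes and 3.4% in this direction. HP dropped out when any 1 of 8 arrays was left out (ES/PA6 -GFs replicate 1 or 2, ES/PA6 FGF2 replicate 3, each PA6 -GFs replicate, and PA6 FGF2 replicate 2 or 3), with differences of -0.91 to -1.14. Of these genes, SAA3, SERPINA3F, SERPINA3N, LCN2 and SLPI also stood higher in the untreated co-cultures than in the untreated stroma.

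Without growth factors, the co-cultures held more SLPI, LCN2, SERPINA3F, SAA3 and SERPINA3N than the stroma alone, although their stromal marker signal was lower. This comparison was tested, on control arrays that also entered the choice of the genes. SLPI was higher by 2.70 ± 0.45 (adjusted p = 5e-05, limma), with co-culture arrays at 9.57 to 10.04 and mono-culture arrays at 6.52 to 7.66. LCN2 was higher by 2.89 ± 0.55 (adjusted p = 0.000199) and SAA3 by 2.49 ± 0.60 (adjusted p = 0.00156). SERPINA3F, undetected in PA6 -GFs, stood at 9.26, 8.96 and 6.68 in ES/PA6 -GFs and was at least 4-fold higher (adjusted p = 0.000398). SERPINA3N was higher by 1.86 ± 0.54 (adjusted p = 0.00591), a value that moved to 1.10 without ES/PA6 -GFs replicate 1 and to 2.45 without ES/PA6 -GFs replicate 3, and SERPINA3F moved to 3.93 on the log2 scale without the latter array.

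HP and C3 were on the lower side. HP was lower in ES/PA6 -GFs by -1.08 ± 0.26 (adjusted p = 0.00147), and its other probes gave -1.22 and -1.28. Without ES/PA6 -GFs replicate 3 its brightest probe stood at -0.82 and no longer passed the fold threshold. C3 was lower by -0.69 ± 0.18 (adjusted p = 0.00284), under the fold threshold. SERPINA3G stood at 11.50 and 11.53 in the 2 culture types (difference -0.04, 95% interval -0.72 to 0.65), SERPINA3H differed by 0.54 ± 0.30 (adjusted p = 0.128), and SERPINA3M was undetected in both. In this comparison 39% of all genes passed, so that 6 of 10 is read against a high background. Of the 10 stromal markers 7 fell, with a median of -1.59, and of the 7 adipocyte markers 5 fell, with a median of -2.35. Their part in these differences was not tested. The other listed genes also ran mostly downwards: 14 of 27 inducer genes fell and 2 rose, 7 of 13 acute-phase proteins fell and 1 rose, 5 of 12 complement genes fell and 2 rose, 7 of 13 other protease inhibitors fell and 3 rose, and 7 of 13 protease targets and receptors fell and 1 rose.

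Upon BMP4, SERPINA3H and SERPINA3G fell in the stroma. SERPINA3H was detected on each PA6 -GFs array and on no PA6 BMP4 array (5.39, 5.04 and 5.10), at least 2.24-fold lower (adjusted p = 0.000881). SERPINA3G stood at 10.73, 10.50 and 10.07 with BMP4, below each PA6 -GFs array, and fell by 1.10 ± 0.32 on the log2 scale (adjusted p = 0.0982). That call was at the edge of the threshold and was lost when any single array of the 2 groups was left out (-0.92 to -1.25, adjusted p 0.117 to 0.311). These were 2 genes of 10, against 1.41% of all genes called and 0.572% called lower. The remaining genes did not pass in limma. SERPINA3N was undetected on each PA6 BMP4 array and detected on 2 of 3 PA6 -GFs arrays. Its groups overlapped (adjusted p = 0.594), so a fall is not shown. SLPI differed by 0.52 (adjusted p = 0.759), HP by 0.45 (adjusted p = 0.539), SAA3 by -0.42 (adjusted p = 0.896), C3 by -0.23 (adjusted p = 0.725) and LCN2 by 0.06 (adjusted p = 0.994). SERPINA3F and SERPINA3M were undetected with and without BMP4. Of the 7 adipocyte markers 2 rose (median 1.27), and their part in the falls of SERPINA3H and SERPINA3G was not tested.

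In the co-cultures SAA3 showed the widest BMP4 difference of the 10 genes. It stood at 11.61, 12.01 and 10.22 without growth factors and at 7.70, 8.96 and 6.70 with BMP4. The highest BMP4 array was below the lowest control array, with a mean difference of -3.49 ± 0.60 and differences of -3.91, -3.05 and -3.52 within the replicate numbers. SERPINA3H was detected on each control array and on no BMP4 array (5.35, 5.55 and 5.51), at least 3.82-fold lower. SERPINA3G stood at 10.42, 10.55 and 9.50, below each control array, by -1.40, -1.35 and -1.26 within the replicate numbers.

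SERPINA3N and SERPINA3F were lower with BMP4 by -1.45 ± 0.54 and -1.31 ± 0.64, with overlapping groups. Within the replicate numbers SERPINA3F was lower by -1.51, -1.74 and -0.67, and SERPINA3N by -2.45, -1.79 and -0.12. SLPI was higher by 0.64 ± 0.45 and LCN2 lower by -0.76 ± 0.55, both with overlap, and HP (0.07) and C3 (-0.23) differed little. The thresholds were passed downwards by SAA3, SERPINA3H and SERPINA3G, 3 genes of 10 against 0.76% of all genes and 0.45% in this direction. SERPINA3G dropped out when ES/PA6 -GFs replicate 1 or 2 or ES/PA6 BMP4 replicate 1 or 3 was left out (-1.01 to -1.47), and SERPINA3N entered at -2.04 without ES/PA6 -GFs replicate 3. SAA3 moved to -4.08 without ES/PA6 BMP4 replicate 2. With only the co-culture arrays fitted, SAA3 and SERPINA3G no longer passed. With the replicate number as a block SERPINA3N and SERPINA3F also passed, making 5 genes. Of the 7 adipocyte markers 2 rose here too (median 1.21), and their part was not tested.

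The BMP4 effects of the 2 culture types differed most for SAA3, by -3.07 ± 0.85, co-cultures minus mono-cultures. The other genes detected in all groups compared ranged from -0.82 for LCN2 to 0.12 for SLPI. SERPINA3F (-1.39) and SERPINA3M (-0.10) were undetected in PA6 cells with and without BMP4. SERPINA3H (-0.24) and SERPINA3N (-0.60) were undetected in PA6 cells with BMP4. The fitted values of these genes depend on the offset and have no rank among the others. Of the 10 genes 0 passed the thresholds in limma, against 0.559% of all genes, 1602 of which had an unadjusted p under 0.05. SAA3 passed at -3.66 without ES/PA6 BMP4 replicate 2. With the replicate block 2 genes passed, SAA3 and SERPINA3F, the latter without a measured BMP4 effect in PA6 cells.

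**Figure D3:**
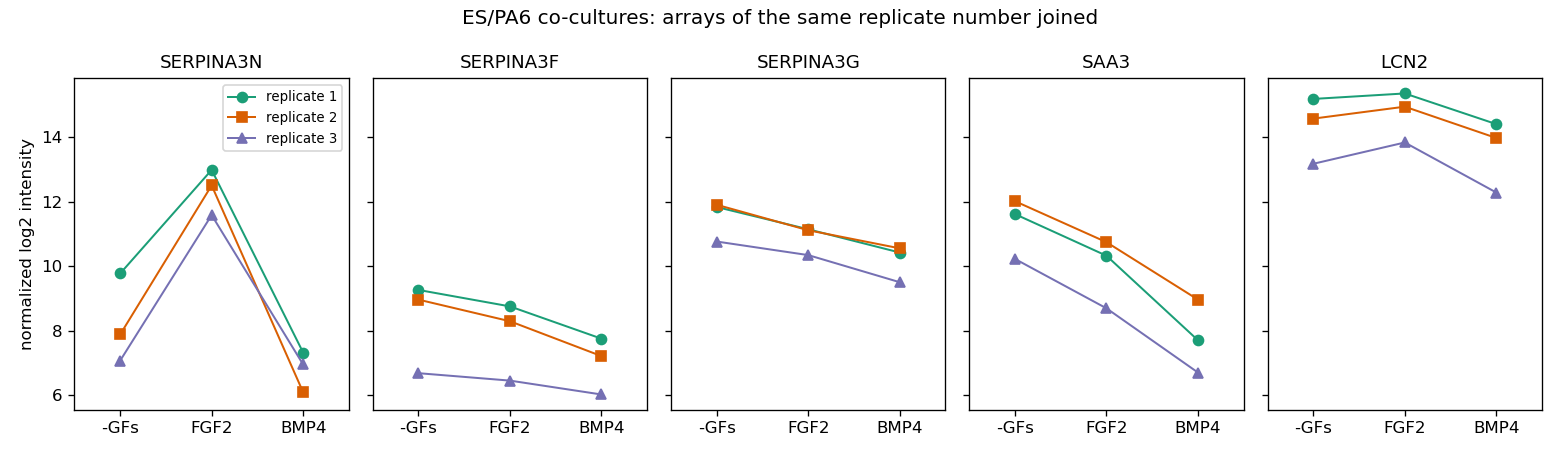
Normalized log2 intensity (y axis) of 5 genes in the ES/PA6 co-cultures by medium (x axis), with 1 line for the arrays of each replicate number. Replicate 3 is the lowest of the 3 in each medium for SERPINA3F, SERPINA3G, SAA3 and LCN2, and the lines of those genes run nearly parallel, with SAA3 lowest in BMP4 for each number.

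The SD between replicates was larger in the co-cultures than in the mono-cultures in 25 of 30 pairs of gene and medium. For SERPINA3N in -GFs medium it was 1.39 (n = 3) with ES cells and 0.677 in PA6 cells alone, and for HP 0.45 and 0.0352. SLPI in -GFs medium was among the 5 pairs that went the other way (0.264 and 0.586). The same share over all genes tested is not given here, so the count is not read as particular to these genes. In some pairs the mono-culture group was undetected, as for SERPINA3F in -GFs medium (1.41 with ES cells and 0.261 in PA6 cells alone). The pooled SE of a gene is the same in both culture types, so it can understate the spread of its co-culture differences. Replicate 3 of the co-cultures was the lowest for SERPINA3F, SERPINA3G, SAA3, LCN2, SLPI and HP in each of the 3 media. SERPINA3H went against this, with replicate 3 the highest in -GFs and FGF2.

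Ordered by their mean, PA6 FGF2 stood first of the 6 groups for 9 of the 10 genes, C3 being the exception. Because FGF2 values entered the choice of the genes, nothing is read from that count. For SERPINA3N the order was PA6 FGF2 (14.69), ES/PA6 FGF2 (12.36), ES/PA6 -GFs (8.24), ES/PA6 BMP4 (6.79), PA6 -GFs (6.38) and PA6 BMP4 (5.52), and neighbours from the third place on overlapped. For SAA3 it was PA6 FGF2 (13.28), ES/PA6 -GFs (11.28), ES/PA6 FGF2 (9.92), PA6 -GFs (8.79), PA6 BMP4 (8.37) and ES/PA6 BMP4 (7.79), with overlap between all neighbours after the first. For LCN2 the 3 co-culture groups lay between PA6 FGF2 (15.83) and the other PA6 groups (11.48 with BMP4 and 11.42 without). SLPI had the 2 FGF2 groups first (12.13 in PA6 and 11.97 in ES/PA6), and these overlapped. For C3 the 3 PA6 groups preceded the 3 co-culture groups.

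Across the 18 arrays, after centring each culture type, SERPINA3F ran most closely with LCN2 (Pearson r = 0.979), SERPINA3G with SAA3 (0.95) and SERPINA3N with SERPINA3M (0.928). HP correlated at 0.0301 to 0.68 with the other genes outside C3, and C3 at -0.271 to 0.404 with the other 9. These values describe arrays that share media and replicate numbers. SERPINA3M was detected on FGF2 arrays alone, so its r with SERPINA3N sets those arrays against undetected values. SERPINA3F was undetected in PA6 -GFs and PA6 BMP4. Signal shared between paralog probes was not tested. Of all genes tested, those most like SERPINA3N were ACE and IL13RA1 and SOCS3 (each 0.977), KLRA4 (0.974) and STEAP2 (0.972). ACE encodes angiotensin converting enzyme, IL13RA1 a receptor chain for IL-4 and IL-13, and SOCS3 the feedback inhibitor of IL-6 family signalling. Those most like SAA3 were GP38 (0.953), which encodes podoplanin, SERPINA3G (0.95), the chemokine CCL2 (0.931), HSD11B1 (0.921), which regenerates active glucocorticoid, and 1700007P14RIK (0.92).

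The inducers of the acute-phase response were read from a list of 31 cytokines, receptors and transcription factors, 27 of them tested. All lists of genes were chosen with earlier results of these data known. Their counts and adjusted p-values therefore describe the listed genes and are not an independent test. Upon FGF2 in PA6 cells 5 of the 27 rose, against 2.71% of all genes, and the median log2 fold change was 0.60. CSF3, the granulocyte colony-stimulating factor, was undetected in PA6 -GFs and rose at least 5.06-fold (adjusted p = 8.4e-05). IL6 was likewise undetected and rose at least 3.65-fold (adjusted p = 1.64e-06). SOCS3 rose by 2.85 ± 0.15 (adjusted p = 6.77e-09), and BCL3, an atypical IκB protein, by 1.88 ± 0.22 (adjusted p = 2.09e-05). In the co-cultures upon FGF2 2 of the 27 passed, against 3.34% of all genes, and both rose, SOCS3 by 2.17 (adjusted p = 3.47e-07) and BCL3 by 1.72 (adjusted p = 0.000161). IL6 was detected on a single array of ES/PA6 FGF2 (mean 5.75) and CSF3 on 2 of 3 (mean 6.39). Upon BMP4 0 of the 27 passed in limma, with an unadjusted p under 0.05 for 4 in the co-cultures and 3 in PA6 cells.

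Other acute-phase proteins, 13 tested of 24, went in both directions upon FGF2 in PA6 cells. LRG1, a leucine-rich glycoprotein, rose by 2.71 (adjusted p = 7.24e-05), IL1RN, the IL-1 receptor antagonist, by 2.42 (adjusted p = 0.000691), ceruloplasmin (CP) by 2.30 (adjusted p = 0.000141) and the pentraxin PTX3 by 1.65 (adjusted p = 2.55e-06). In all 5 of the 13 rose, against 2.71% of all genes, and 2 fell. Those that fell were the orosomucoids, ORM1, which fell by 3.33 on the log2 scale (adjusted p = 0.00162) and ORM2, undetected with FGF2, at least 4.71-fold (adjusted p = 0.00542). Among 12 complement genes tested of 20, 2 passed, against 5.27% of all genes, and both fell, CFD by 4.79 on the log2 scale (adjusted p = 0.000281) and C4A by 1.13 (adjusted p = 0.00882), the latter lost without PA6 -GFs replicate 1 (-0.97) or PA6 FGF2 replicate 2 (-0.95).

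CFD is adipsin, a protease secreted by fat cells, and is itself among the 9 adipocyte markers. Its own changes therefore enter their means and counts. The 9 adipocyte markers averaged 8.74 (8.68 to 8.81) in PA6 -GFs, 6.74 (6.58 to 6.90) in PA6 FGF2 and 9.92 (9.62 to 10.46) in PA6 BMP4, with FABP4 and RETN detected in no group. Of 7 tested, 4 fell upon FGF2 in PA6 cells and 2 rose upon BMP4. Their part in the changes of CFD, ORM1 and ORM2 was not tested. In the co-cultures the same markers averaged 7.13 without growth factors, 6.42 with FGF2 and 8.51 with BMP4.

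**Figure D4:**
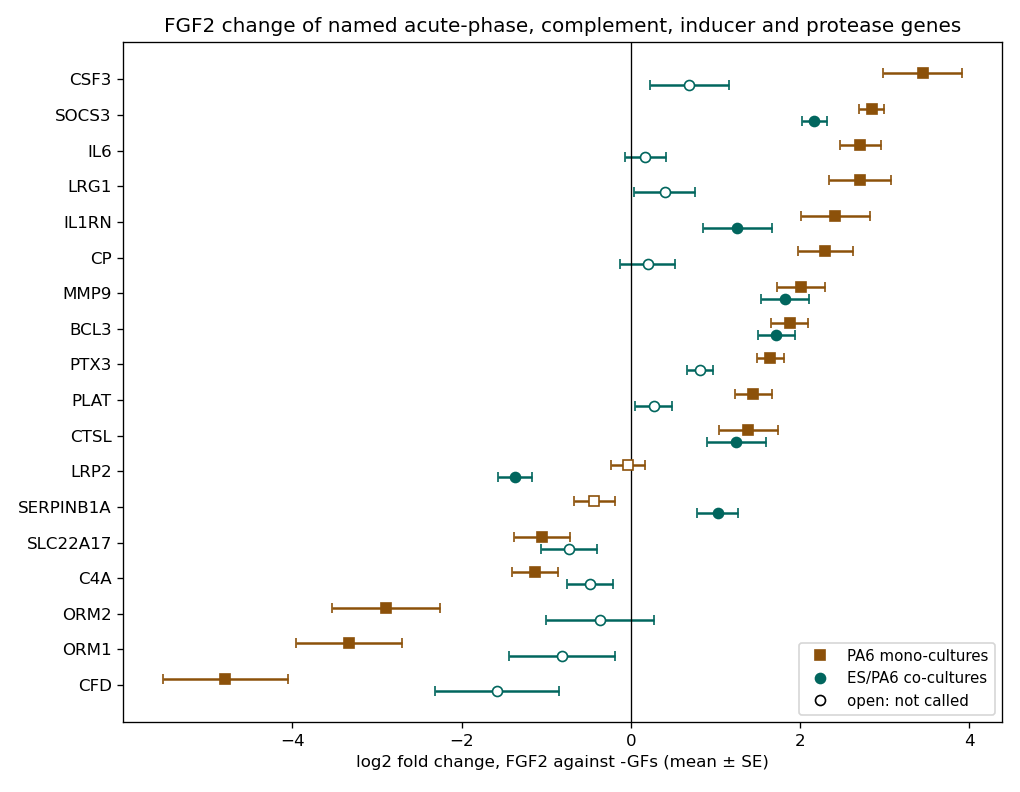
Log2 fold change upon FGF2 against -GFs (x axis, mean ± SE of the limma fit) of the named genes of the fixed lists (y axis), squares for PA6 mono-cultures and circles for ES/PA6 co-cultures. Filled symbols passed the thresholds. SOCS3, BCL3, MMP9, IL1RN and CTSL passed in both culture types, while CSF3, IL6, LRG1, CP and PTX3 passed in the mono-cultures.

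In the co-cultures upon FGF2 1 acute-phase protein passed, IL1RN at 1.26 (adjusted p = 0.0882), and 0 of 12 complement genes did, with 3 at an unadjusted p under 0.05. The IL1RN call was lost without ES/PA6 -GFs replicate 2 or 3 or ES/PA6 FGF2 replicate 1 or 2 (0.83 to 1.34, adjusted p 0.157 to 0.334). Upon BMP4 in the co-cultures IL1RN rose by 1.59 (adjusted p = 0.0896) and CFD by 3.19 (adjusted p = 0.0596). IL1RN was lost there without ES/PA6 -GFs replicate 2 or 3 or ES/PA6 BMP4 replicate 1 or 2 (1.15 to 1.67), and CFD without ES/PA6 -GFs replicate 1 or 3 or ES/PA6 BMP4 replicate 2 (2.40 to 3.15). CFD moved to 4.01 without ES/PA6 -GFs replicate 2. Upon BMP4 in PA6 cells 0 of the 79 listed genes passed in limma, against 1.41% of all genes, and 10 had an unadjusted p under 0.05, as had 2078 of the 16446 genes tested. Neither count stands apart from the background.

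The proteases that these inhibitors bind, and the receptors of LCN2 and of serpin complexes, made a list of 20, with 13 tested. Upon FGF2 in PA6 cells the metalloprotease MMP9 rose by 2.01 (adjusted p = 0.000129), tissue plasminogen activator PLAT by 1.45 (adjusted p = 0.000288) and cathepsin CTSL by 1.39 (adjusted p = 0.0124). SLC22A17, a lipocalin receptor, fell by 1.05 on the log2 scale (adjusted p = 0.0424), a call lost without PA6 -GFs replicate 2 or PA6 FGF2 replicate 2 or 3 (-0.87 to -0.97). In the co-cultures MMP9 rose by 1.82 (adjusted p = 0.000898) and CTSL by 1.25 (adjusted p = 0.0424), the latter lost without ES/PA6 -GFs replicate 2 or ES/PA6 FGF2 replicate 1 or 2 (0.86 to 1.19). LRP2 (megalin), an endocytic receptor undetected in PA6 cells, fell by 1.37 on the log2 scale (adjusted p = 0.000525).

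Of 23 protease inhibitors listed outside the cluster, 13 were tested. Upon FGF2 0 of these passed in PA6 cells, against 5.27% of all genes (3 at an unadjusted p under 0.05, median log2 fold change -0.10), and 1 passed in the co-cultures, against 3.34%, so that neither count stands apart from the background. SERPINB1A was the gene that passed in the co-cultures, from undetected to 6.14 on average with 2 of 3 arrays detecting it, at least 1.2-fold higher (adjusted p = 0.0167), and stood at 0.88, under the fold threshold, without ES/PA6 FGF2 replicate 1. Upon BMP4 0 passed in either culture type, with 3 at an unadjusted p under 0.05 in the co-cultures and 1 in PA6 cells.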

How the data were processed

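RNA of 18 cultures was measured on Illumina MouseWG-6 v2.0 bead arrays, 3 for each of 6 groups. Groups, replicate numbers, doses and day came from the labels. The methods give a lower dose of BMP4 than the labels do, and the dose in the labels was used. The authors labelled cRNA with biotin, and per the labels GenomeStudio 2011.01 read out the arrays. The deposited intensity values are non-normalized, 1 per probe, from 55.5 to 72879, and each has a deposited detection p-value against negative control beads. Of the table's lines 5 stray ones, shifted into other columns, were left out. No 2 arrays were identical (0 pairs), and arrays of a group correlated at 0.981 to 0.992. The number of arrays limits the precision: 3 against 3 cannot give a permutation p below 0.1.

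With limma 3.58.1 in R 4.3.3, neqc corrected the background, added an offset of 16, quantile normalized and took log2, in place of the cubic spline of the study's methods. The offset understates fold changes of dim genes. Of all probes 22987 were kept, those detected (p under 0.05) on 3 arrays or more, and as in the study's methods the brightest probe stood for its gene (16446 genes). A fit of 6 group means (lmFit, contrasts.fit, eBayes) gave every comparison, called at the study's thresholds: adjusted p (Benjamini-Hochberg) under 0.1 together with a log2 fold change beyond 1 in either direction. Where a group detected a probe on none of its arrays, the fold is a bound ("at least"), taken against the higher of each array's lowest detected signal and the probe's own. The procedure was tested on simulated data.

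The genes, the lists (serpin cluster neighbours, other protease inhibitors, acute-phase proteins, complement, acute-phase inducers, protease targets and receptors) and the cell type markers were chosen with earlier results of these data known. From each list, the called genes with the largest changes were named in each growth factor comparison, at most 4 in each direction. The genes most like SERPINA3N and SAA3 are the 5 with the highest r. Deviations of same-numbered arrays correlated at 0.325 to 0.521 in the 9 pairs of the co-cultures, at 0.0628 to 0.164 in the 9 pairs of the mono-cultures and at -0.0248 to 0.175 in the 27 pairs across them. The labels describe 1 well of each condition per biological replicate. The numbers were taken to pair the co-culture arrays, and replicate number nested in culture type was fitted as a block, as an alternative. Others were the background correction, scaling, detection filter, prior, thresholds, probe choice, fits of 1 culture type and leaving out each array. Promoter sequences and gene order are from RefSeq (GRCm38.p6). Gene names are those of the array and can be old.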

Additional observations from a re-analysis of the deposited data

Results flagged for a closer look

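The effect of FGF2 differed between the culture types beyond the thresholds of the limma fit for 9 of the 10 genes described and for 12 of the 79 listed genes, against 7.39% of all genes. Differences are log2 effects, co-cultures minus mono-cultures. For the genes described they are values without a test, since the choice of the genes used them: -5.85 for SERPINA3F, -5.85 for SAA3, -4.20 for SERPINA3N, -4.01 for LCN2, -2.86 for SLPI, -2.44 for SERPINA3H, -2.42 for SERPINA3G, -1.56 for SERPINA3M and -1.12 for HP.

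Among the listed genes, the log2 effect was lower in the co-cultures for CSF3 (-2.76, adjusted p = 0.0141), IL6 (-2.54, adjusted p = 0.00022), LRG1 (-2.31, adjusted p = 0.00865), MT2 (-2.16, adjusted p = 0.00711), CP (-2.09, adjusted p = 0.00893), CD14 (-1.03, adjusted p = 0.0364) and PLAT (-1.19, adjusted p = 0.0251). MT2 and CD14 are outside the rule for named genes and were added after their values were seen. CSF3, IL6, SERPINA3F and SERPINA3M were undetected in PA6 -GFs, so that their values depend on the offset and are not bounds. The fall of 3 genes was larger in the mono-cultures, CFD (3.21, adjusted p = 0.0621), ORM1 (2.52, adjusted p = 0.0872) and ORM2 (2.52, adjusted p = 0.0914). ORM1 and ORM2 averaged 6.13 and 5.77 in ES/PA6 -GFs, where ORM2 was detected on 1 of 3 arrays. SERPINB1A (1.45, adjusted p = 0.0130) and LRP2 (-1.35, adjusted p = 0.00652) passed in the co-cultures and not in PA6 cells, where LRP2 was undetected.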

How the results depend on the processing

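Of 1586 values of single genes under the alternatives, 1498 stayed on the same side of the thresholds with the same direction, 72 dropped below them, 16 rose above them and 0 reversed among called values. The counts below are of the 10 genes described and of the 79 listed genes. Requiring detection on all 18 arrays leaves 6 and 51 of them to test. It gave 4 and 11 upon FGF2 in PA6 cells (8 and 18 as reported), 1 and 4 upon FGF2 in co-cultures (3 and 7), 5 and 6 for the difference of the FGF2 effects (9 and 12), and 1 described gene upon BMP4 in PA6 cells (2). Without a fold threshold the listed genes called were 36, 13 and 19 in those FGF2 comparisons, 4 upon BMP4 in co-cultures (2) and 3 upon BMP4 in PA6 cells (0). Upon BMP4 in co-cultures the listed count was 1 with median scaling or no filter on dim probes, and 0 with trended robust priors, at adjusted p under 0.05, or with only the co-culture arrays fitted, where 1 described gene passed (3). Upon BMP4 in PA6 cells 1 described gene passed with median scaling, detection on at least 1 array, no filter, trended robust priors or adjusted p under 0.05, and the listed count was 1 without background correction and 2 with only the mono-culture arrays. For the difference of the BMP4 effects 1 described gene passed without background correction (0). With arrays blocked by replicate number the described genes called were 5 upon BMP4 in co-cultures and 2 for the difference of the BMP4 effects, and the listed genes 2 upon BMP4 in PA6 cells and 1 for that difference. SAA3 entered upon FGF2 in co-cultures, and the block changed no other call of a described gene, nor of a named listed gene upon a growth factor within a culture type. SERPINA3H did not pass upon FGF2 without background correction (0.90 in PA6 cells, -0.73 in co-cultures). C3 without growth factors stood at -1.0 with median scaling and then passed.

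Leaving out 1 array at a time, described and listed genes called ran from 7 to 8 and 16 to 19 upon FGF2 in PA6 cells, 2 to 4 and 4 to 10 upon FGF2 in co-cultures, 2 to 4 and 0 to 3 upon BMP4 in co-cultures, 1 to 1 and 0 to 1 upon BMP4 in PA6 cells, 5 to 6 and 47 to 52 between culture types, 8 to 9 and 8 to 14 for the FGF2 difference, and 0 to 1 and 0 to 0 for the BMP4 difference. The cause of these shifts was not tested.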
